A study of Homo sapiens with 9 samples.

Results

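miR-224 and miR-452 are a pair of microRNA hairpins that lie close together within an intron of GABRE, the gene of the epsilon subunit of the GABA-A receptor, on the reverse strand of the X chromosome. Their 4 mature arms, hsa-miR-224-5p, hsa-miR-224-3p, hsa-miR-452-5p and hsa-miR-452-3p (written without the species prefix from here on), were taken from a table of 2652 mature miRNA names, and each arm had 1 locus in it. The cluster was chosen because miR-224-3p was among the miRNAs most retained by the PD-L1 3'UTR. It was thus selected on the levels of miR-224-3p in trapping with the PD-L1 3'UTR, set against the MS2 control and the input. These values of miR-224-3p are therefore given as a description, with no test. The other 3 arms were taken in with their hairpins and not by their own values.

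The data are 9 small RNA libraries of untreated, wild-type ES-2 cells, an established line derived from ovarian cancer. Each group had 3 replicates. The input held RNA of the cell lysate. For the other groups the lysate was passed over a resin that carried a bait RNA, by miRNA trapping (miTRAP): the bait was RNA with MS2 loops alone in the MS2 control group, and the 3'UTR of PD-L1 (gene CD274) with MS2 loops in the PD-L1 3'UTR group, whose libraries are called PD-L1 bait libraries here. The baits were not used in equal amounts. According to the study's methods, the molar amount of the PD-L1 3'UTR bait was many times that of the MS2 control RNA. An effect of bait sequence and of its quantity cannot be told apart. All libraries came from the same cell line. The study's methods describe its experiments in general as done in biological replicates, but the labels do not say that these libraries came from separate cultures. P-values therefore measure only the spread between these libraries, which may be technical.

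A miRNA hairpin is cut by Drosha and Dicer into a short duplex, from which usually 1 arm, the guide, is loaded into an Argonaute protein, while the partner arm is mostly degraded. The loaded arm finds its targets mainly through its seed, bases 2 to 8, which pairs with matching bases in 3'UTRs. Since the arms of a hairpin carry different seeds, they can bind different RNAs although they come from the same precursor. miR-224-5p is the better known arm of this cluster and is a frequently described cancer-associated miRNA, for example in liver cancer.

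The mature sequences are shown because the arms differed in retention and each carries a seed of its own. They are RefSeq sequences on GRCh38.p14, given 5′ to 3′ with the seed (bases 2 to 8) in capitals. miR-224-5p lies at chrX:151958628-151958652, miR-224-3p at chrX:151958584-151958606, miR-452-5p at chrX:151959678-151959699 and miR-452-3p at chrX:151959634-151959655, all on the reverse strand.
miR-224-5p: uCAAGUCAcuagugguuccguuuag
miR-224-3p: aAAAUGGUgcccuagugacuaca
miR-452-5p: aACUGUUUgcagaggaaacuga
miR-452-3p: cUCAUCUGcaaagaaguaagug

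No pair of the 4 arms shared a seed. Their lengths were 25, 23, 22 and 22 bases in the order shown, and their GC content lay between 40.9% and 44%. On GRCh38.p14 the hairpins MIR224 (81 bases) and MIR452 (85 bases) were 969 bases apart. In the GENCODE annotation of GRCh37, both lay in intron 6 of GABRE-201, a transcript of 9 exons, on the strand of the host gene. In that build MIR452 began 126 bases after the upstream exon, and MIR224 ended 2717 bases before the downstream exon. Of the other human mature sequences in the RefSeq table, which is not complete, 2 shared a seed with an arm of the cluster, miR-4676-3p and miR-892c-3p, both with miR-452-5p. They are shown because they would read the same target bases as miR-452-5p.
miR-4676-3p: cACUGUUUcaccacuggcucuu
miR-892c-3p: cACUGUUUccuuucugagugga

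Neither same-seed miRNA passed the filter on low counts, with 26 and 6 counts over the 9 libraries. No other mature sequence in the RefSeq table came within fewer than 6 mismatches of a member over at least 18 aligned bases.

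The smallest and largest libraries held 3794799 and 5983577 miRNA counts among input libraries, 1156261 and 2236535 among MS2 controls, and 672824 and 1237652 for the PD-L1 bait. Levels are given as CPM (counts scaled to a common library size) with TMM factors, which adjust libraries to the bulk of their miRNAs. PD-L1 bait replicate 1 stood apart from the other libraries in the listed markers of blood, muscle, liver and epithelial cells, but not in those of neurons or pluripotent cells. Listed miRNA markers of blood, muscle, liver, neurons and pluripotent cells (18 markers) summed to between 417 and 477 CPM in the input, between 546 and 617 CPM in the MS2 control, and to 4031, 1071 and 1229 CPM in PD-L1 bait replicates 1, 2 and 3. In the same order, 9, 8 and 6 of the 18 had no count in a group. The 4 muscle markers alone reached 1841 CPM in PD-L1 bait replicate 1, against 102 and 28.3 CPM in replicates 2 and 3. Blood markers summed to 1410, 586 and 541 CPM in PD-L1 bait replicates 1, 2 and 3, and neuron markers to 620, 382 and 646 CPM. In the other groups these lists reached at most 359 and 250 CPM. Markers of epithelial cells, the miR-200 family (5 markers), summed to between 41.5 and 55.5 CPM in the input and between 55.2 and 78.2 CPM in the MS2 control, and to 236, 63.1 and 37 CPM in PD-L1 bait replicates 1, 2 and 3. In each group 1 of the 5 had no count. The part of these differences in the results was not tested. Values without PD-L1 bait replicate 1 are given beside those over the MS2 control.

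miR-224-5p was the dominant arm of the cluster in every library. It made up 79.7% ± 4.09 (SD, n = 3) of the cluster's reads in the input, 84.1% ± 2.28 in the MS2 control and 83% ± 2.55 with the PD-L1 bait. By mean CPM it ranked 84 among all names in the input. miR-452-5p ranked 140, miR-452-3p 248 and miR-224-3p 467. The 4 arms together held 0.0563% ± 0.0101 (SD, n = 3) of the counts in the input, 0.0566% ± 0.000198 in the MS2 control and 0.0964% ± 0.0145 in the PD-L1 bait libraries. Thus the cluster was of moderate abundance in these cells, and almost all of it was read from its 5p arms.

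All 4 arms passed the filter on low counts, which left 408 names for the test. miR-224-3p passed it through the PD-L1 3'UTR group alone. All 3 of its libraries there, and none in the input or in the MS2 control, reached the cut-off of 8.05 CPM on library totals. A miRNA that enters in this way must differ between groups, so its presence among the tested names supports nothing.

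miR-224-3p, the arm that chose the cluster, had few reads, and most of them came from the shallowest group. Its raw counts were 11, 10 and 8 in input replicates 1, 2 and 3, 0, 0 and 1 in the MS2 control and 17, 18 and 35 with the PD-L1 bait, although every PD-L1 bait library was shallower than every input library. On the CPM scale these were 2.89, 3.37 and 1.80 in the input, 0, 0 and 0.757 in the MS2 control and 12, 24.1 and 25.4 with the PD-L1 bait. Every PD-L1 bait library was above every other library, as was so for 21.3% of all miRNAs tested, and the MS2 control libraries were all below the input. A floor of 3 counts was worth between 1.19 and 2.27 CPM in the MS2 control libraries, so miR-224-3p was not measurable there beyond counting error.

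From the summed counts of 70 and 1, the level of miR-224-3p with the PD-L1 bait was 107 times that in the MS2 control, with an exact (Clopper-Pearson) 95% interval of the ratio from 18.5 to 4274 that covers counting error only. Over the input (70 against 29 counts) the ratio was 7.65, with an interval from 4.90 to 12.2. The corresponding fitted log2 fold changes were 6.38 ± 0.86 (SE) and 2.91 ± 0.55, or 6.63 and 3.10 without PD-L1 bait replicate 1. The value over the MS2 control rests on the lone count of MS2 control replicate 3, and was 8.52 without that library. The miRNAs that edgeR called higher than both other groups, with libraries that did not overlap, were ordered by fold change over the MS2 control. They were 71 miRNAs, 17.4% of those tested, or 18.9% where overlap is allowed. In this order miR-224-3p took place 9. Its calls came from the values that chose it, so the place is a description that the choice largely fixed, and no test. The places just above miR-224-3p were held by miR-17-5p with 6.71 and miR-454-3p with 6.49 on the log2 scale. Just below were miR-20a-5p at place 10 with 6.15, the last within the leading 10, and miR-29b-2-5p at place 11 with 6.09, the nearest outside.

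**Figure D1:**
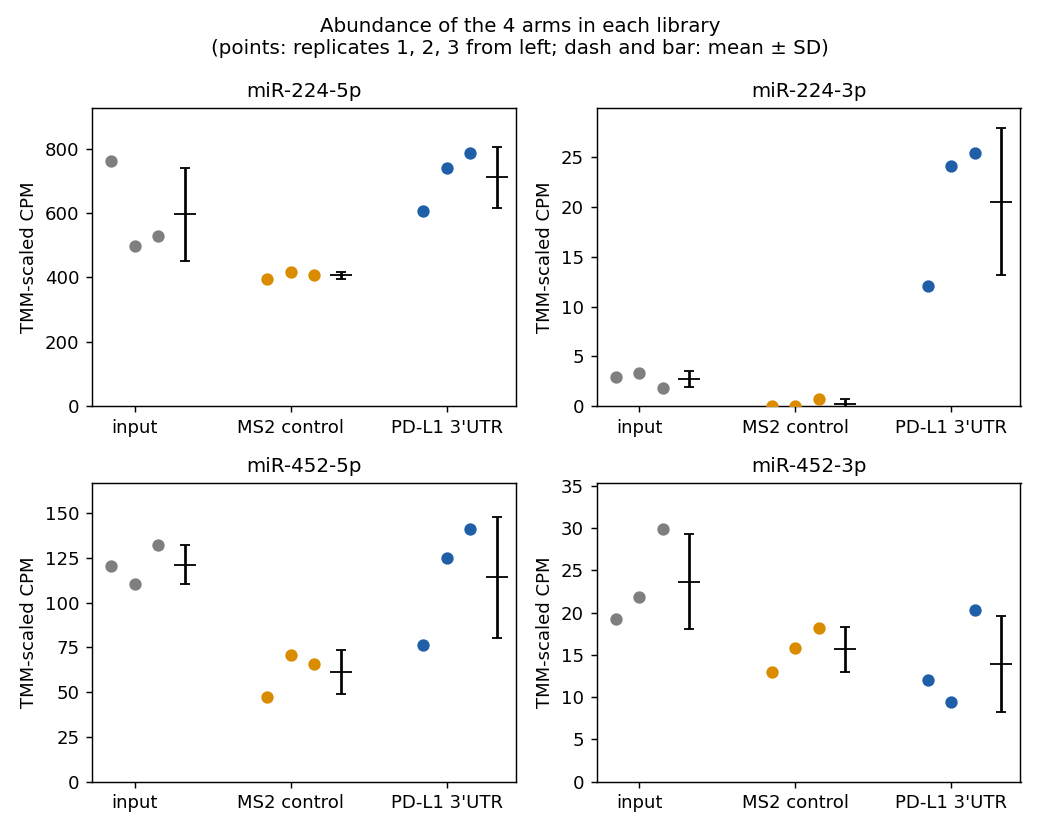
TMM-scaled CPM (linear axis from 0) of each arm in each library, with replicates 1 to 3 from left to right in each group and the mean ± SD (n = 3) beside them. miR-224-3p reached 12 to 25.4 CPM with the PD-L1 bait and at most 3.37 CPM elsewhere, whereas miR-452-3p overlapped between the PD-L1 bait and both other groups.

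miR-224-5p, its abundant partner, showed a smaller difference. Its CPM values were 762, 497 and 528 in the input, 394, 417 and 409 in the MS2 control and 605, 741 and 786 with the PD-L1 bait. The PD-L1 bait libraries were all above the MS2 control and overlapped with the input. How many of all miRNAs were separated from the MS2 control in this way was not counted. Against the MS2 control miR-224-5p was 1.75-fold higher, with 0.80 ± 0.19 (SE) on the log2 scale (adjusted p of 0.00352 by edgeR's quasi-likelihood test with Benjamini-Hochberg adjustment over all 408 miRNAs), and it was 0.86 without PD-L1 bait replicate 1. Of all miRNAs tested, 31.4% were called higher than in the MS2 control and 60% were called in either direction, so this call alone does not set it apart.

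Against the input the log2 fold change of miR-224-5p was 0.25 ± 0.19 (SE, adjusted p of 0.246 by edgeR, with alternatives between 0.00208 and 1) and did not pass the threshold. Here input replicate 1 weighed on the result, since without it the log2 fold change was 0.47 and passed with an adjusted p of 0.0276 by edgeR. Scaling by library totals in place of TMM raised the median of all miRNAs by 0.57 in this comparison, and miR-224-5p to 0.82 (edgeR adjusted p of 0.00208).

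miR-452-5p, the main arm of the neighbouring hairpin, behaved much like miR-224-5p between the baits. It had 121, 111 and 132 CPM in the input, 47.2, 70.6 and 65.8 CPM in the MS2 control and 76.5, 125 and 141 CPM with the PD-L1 bait. Each PD-L1 bait library was above each MS2 control library, replicate 1 by a small margin, and the group overlapped with the input. The share of all miRNAs with such a separation was not counted. Against the MS2 control the log2 fold change was 0.90 ± 0.27 (SE, edgeR adjusted p of 0.0132), which was 1.07 without PD-L1 bait replicate 1. Without PD-L1 bait replicate 3 it was 0.70 and the call was lost (edgeR adjusted p of 0.0578). Against the input it was -0.09 ± 0.26 (edgeR adjusted p of 0.776, with alternatives between 0.105 and 0.977). Its sign there turned with the scaling, to 0.48 with library totals, and without PD-L1 bait replicate 1, to 0.04.

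miR-452-3p passed the test neither against the MS2 control nor against the input. It had 19.2, 21.9 and 30 CPM in the input, 12.9, 15.9 and 18.2 CPM in the MS2 control and 12, 9.39 and 20.3 CPM with the PD-L1 bait. The PD-L1 bait values spanned those of the MS2 control and, with replicate 3, reached into the input. Against the MS2 control the log2 fold change was -0.14 ± 0.37 (SE, edgeR adjusted p of 0.77, with alternatives between 0.296 and 1), and it was -0.06 without PD-L1 bait replicate 1 and 0.05 without replicate 2. Against the input it was -0.74 ± 0.35 (edgeR adjusted p of 0.0882, with alternatives between 0.0285 and 0.686). It passed the threshold without PD-L1 bait replicate 3, at -1.12 with an edgeR adjusted p of 0.0285.

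Thus 2 of the 3 arms that came in with their hairpins, both 5p arms, passed the test as higher than the MS2 control, against 31.4% of all miRNAs. None of the 3 passed it against the input, where 66.4% of all miRNAs did in either direction (34.1% higher and 32.4% lower). Under TMM scaling these were 139 higher and 132 lower miRNAs, and with library totals 192 and 89. The median log2 fold change of these 3 arms over the MS2 control was 0.80, beside 0.02 for all miRNAs tested, and over the input -0.09 beside 0.04. With miR-224-3p, whose values chose the cluster, the medians of the 4 arms were 0.85 and 0.08, so the sign over the input rests on that arm.

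**Figure D2:**
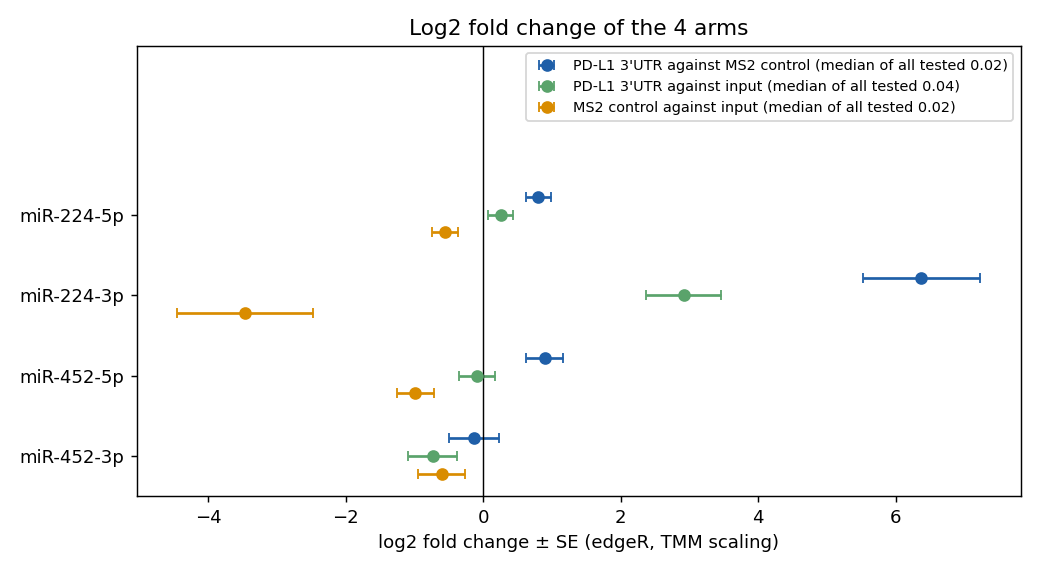
Log2 fold change with its SE (edgeR, TMM scaling) of the 4 arms in the 3 comparisons, which share libraries. With the PD-L1 bait miR-224-3p stood at 6.38 against the MS2 control, and at 2.91 against the input, while the other arms lay between -0.74 and 0.90. In the MS2 control against the input miR-224-3p stood at -3.46 and the other arms lay between -0.98 and -0.55.

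What the resin and the MS2 loops retained without a 3'UTR was read from the MS2 control against the input. There 69.9% of all miRNAs were called, 32.8% as higher (134) and 37% as lower (151), and with library totals 199 were higher and 104 lower. miR-224-5p had a log2 fold change of -0.55 ± 0.19 (SE, edgeR adjusted p of 0.0216) and miR-452-5p of -0.98 ± 0.26 (edgeR adjusted p of 0.00664). In both arms, and in miR-452-3p too, every MS2 control library was below every input library. How many of all miRNAs were separated in this way was not counted. The calls of both 5p arms depended on the scaling. With library totals, which raised the median of all miRNAs by 0.63, miR-224-5p stood at 0.08 and miR-452-5p at -0.36, and neither passed. The call of miR-224-5p was also lost without input replicate 1, at -0.33, and without MS2 control replicate 1, at -0.53. miR-452-3p had a log2 fold change of -0.60 ± 0.34 (edgeR adjusted p of 0.137) and did not pass. For miR-224-3p the summed counts of 1 and 29 gave a level in the input 13.9 times that in the MS2 control, with an exact 95% interval from 2.31 to 570. This comparison shares its libraries with those that chose miR-224-3p and is a description.

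The share of the 3p arm within a hairpin compares both arms in the same library and so does not depend on library scaling. In the miR-224 hairpin the 3p arm had 0.378%, 0.673% and 0.340% of the reads in input replicates 1, 2 and 3, with 95% Wilson intervals from 0.211% to 0.676%, from 0.366% to 1.24% and from 0.172% to 0.670%. In the MS2 control it had 0 of 610 and 0 of 1052 reads in replicates 1 and 2, and 0.185% (0.0326% to 1.04%) in replicate 3. The upper Wilson limits of replicates 1 and 2 were 0.626% and 0.364%, and a floor of 3 counts gave 0.492% and 0.285%. With the PD-L1 bait the shares were 1.95% (1.22% to 3.10%), 3.16% (2.01% to 4.94%) and 3.13% (2.26% to 4.32%). PCR copies of a molecule are counted as separate reads, so these intervals and limits hold counting error alone. The PD-L1 bait shares were above all others, which follows from the values that chose miR-224-3p and is not a test. At the 3p to 5p ratio of the input, 10.8 reads of miR-224-3p would have accompanied the 2490 reads of miR-224-5p with the PD-L1 bait, where 70 were counted, and 9.51 would have accompanied the 2202 reads in the MS2 control, where 1 was counted. As a mean of log2 ratios (pseudocount of 0.5 on each arm), the 3p to 5p ratio was 4.78 higher than in the MS2 control and 2.59 higher than in the input. The first value depends on the pseudocount, since the MS2 control had 0, 0 and 1 reads of the 3p arm. It was 4.01 with a pseudocount of 1, 5.38 from summed counts and 5.50 without MS2 control replicate 3.

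The miR-452 hairpin went the other way. Its 3p arm, miR-452-3p, had 13.7% (95% Wilson interval 11.1% to 16.9%), 16.5% (13.2% to 20.5%) and 18.4% (15.8% to 21.4%) of the hairpin's reads in input replicates 1, 2 and 3. In the MS2 control it had 21.5% (14.4% to 30.9%), 18.3% (13.8% to 24%) and 21.6% (15% to 30.2%). With the PD-L1 bait it had 13.6% (8.67% to 20.7%), 7% (3.43% to 13.7%) and 12.6% (8.83% to 17.5%). These shares were below every input and every MS2 control library, if by a small margin in replicate 1. The level of miR-452-3p itself was not: it overlapped with both groups, whereas 18.9% of all miRNAs tested had every PD-L1 bait library below every other. The log2 ratio of 3p to 5p was 1.08 lower with the PD-L1 bait than in the MS2 control, with p = 0.1 in an exact two-sided permutation test, the smallest that 3 against 3 libraries allow, and 0.15 after adjustment over the 3 comparisons. Against the input it was 0.65 lower (exact permutation p = 0.2, adjusted p = 0.2). With the pseudocount, the log2 ratio of PD-L1 bait replicate 1 (-2.63) lay just above that of input replicate 1 (-2.64), unlike the shares. Between the MS2 control and the input it was 0.43 higher (exact permutation p = 0.1, adjusted p = 0.15), although the shares of these groups overlapped (18.3% in MS2 control replicate 2 and 18.4% in input replicate 3). No comparison of this ratio could pass the threshold at this number of libraries. Without PD-L1 bait replicate 1 the log2 differences from the MS2 control were 5.01 for miR-224 and -1.27 for miR-452.

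**Figure D3:**
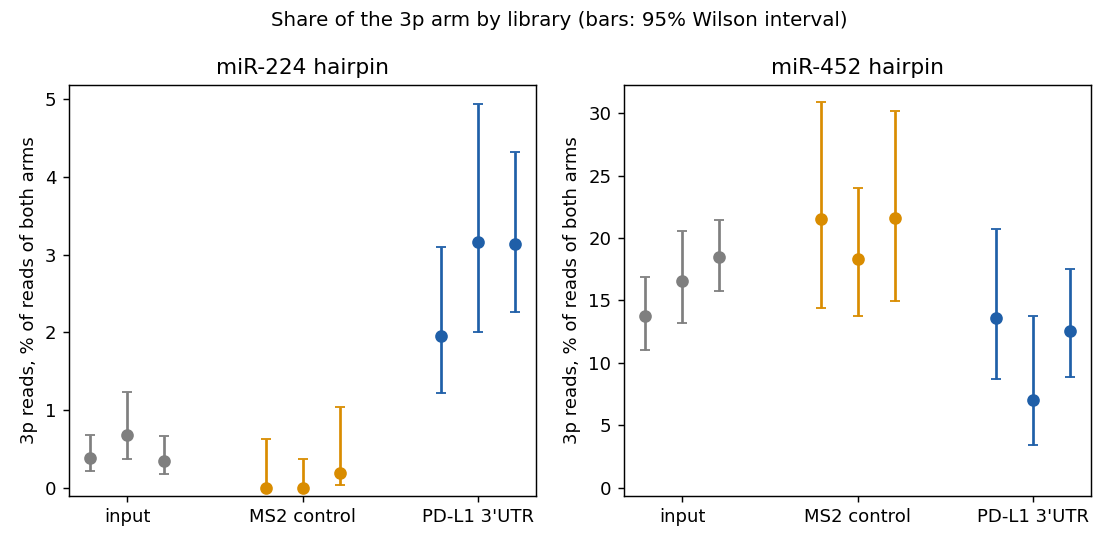
Share of 3p reads among the reads of both arms (%, axis from 0) in each library, with 95% Wilson intervals, for the miR-224 hairpin (left) and the miR-452 hairpin (right). With the PD-L1 bait the share of miR-224-3p lay between 1.95% and 3.16%, above the other groups, and that of miR-452-3p lay between 7% and 13.6%, below the other groups.

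The 5p arms of both hairpins stayed in a similar proportion to each other. The ratio of miR-224-5p to miR-452-5p reads was 6.31, 4.50 and 3.99 in the input, 8.36, 5.91 and 6.21 in the MS2 control and 7.92, 5.94 and 5.55 with the PD-L1 bait. The trapped groups overlapped in this ratio, with means of 6.82 ± 1.33 and 6.47 ± 1.27 (SD, n = 3), and the input mean was 4.93 ± 1.22.

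How the arms of a hairpin differ was set beside the other 99 hairpins with both arms tested. A difference between arms was common. Against the MS2 control, the log2 fold changes of the arms were more than 1 apart in 74.7% of these hairpins and of opposite sign in 43.4%, with a median distance of 1.82. By this distance miR-224 (5.57) took place 11 of 101 and miR-452 (-1.03 as 3p minus 5p) place 73. The largest distances, as 3p minus 5p, were those of miR-1226 (9.56), miR-505 (8.27) and miR-106b (-8.14, with the 3p arm lower). Against the input miR-224 took place 32 (2.66, beside a median of 1.96 for the other hairpins) and miR-452 place 78. Between the MS2 control and the input they took places 29 and 89. The distances of miR-224 are mostly those of miR-224-3p, which was chosen for these values and had 1 count in the MS2 control, so its places are a description that the choice largely fixed.

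**Figure D4:**
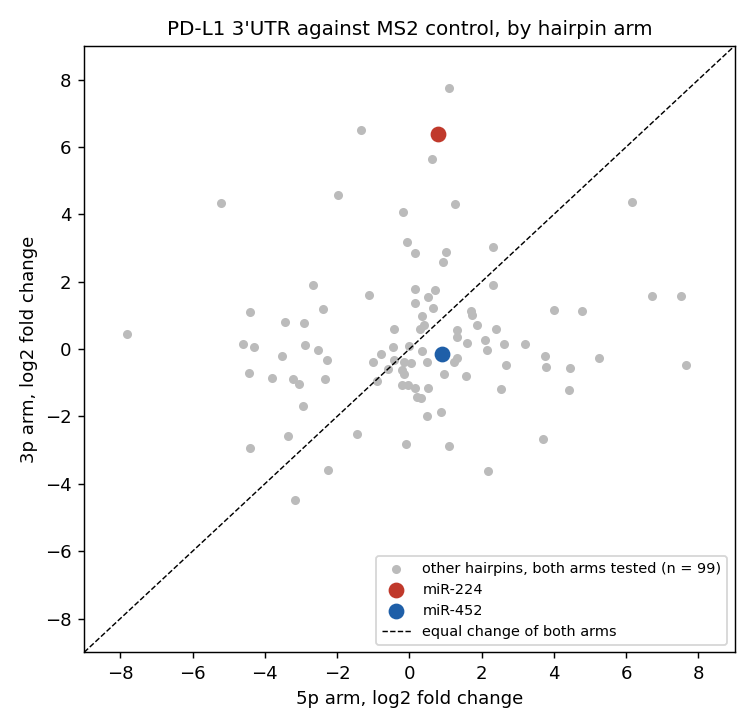
Log2 fold change of the PD-L1 3'UTR against the MS2 control of the 5p arm (x axis) and the 3p arm (y axis) of each hairpin with both arms tested, with 99 other hairpins in grey and the line of equal change dashed. miR-224 lies far above the line, at 0.80 for 5p and 6.38 for 3p, and miR-452 a little below it, at 0.90 and -0.14.

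The bait carried the 3'UTR of CD274, so matches to the seeds of the 4 arms were sought in it. The 3'UTR of transcript CD274-202 has 2692 bases in the GENCODE set for GRCh37, and the stretch of it that the bait carried was not analysed here. A match was counted where the 3'UTR held the complement of seed bases 2 to 8 (7mer-m8), that of bases 2 to 7 followed by A (7mer-A1), or both together (8mer), on the sense strand. The motifs were ACCATTT and CCATTTA for miR-224-3p, TGACTTG and GACTTGA for miR-224-5p, AAACAGT and AACAGTA for miR-452-5p, and CAGATGA and AGATGAA for miR-452-3p. The letters of the paired motifs of an arm overlap. miR-224-3p had 3 matches, miR-452-5p had 1, and the other arms had 0. The windows with the matches are shown because miR-224-3p was the most retained arm, with the match in capitals and positions counted from 1 at the base after the stop codon.
miR-224-3p, 7mer-A1, bases 767 to 773: cagtatctgttCCATTTAaatatcagctt
miR-224-3p, 8mer, bases 1004 to 1011: tttattcaaaaACCATTTAttaagtgccct
miR-224-3p, 7mer-m8, bases 1853 to 1859: tttagacaaccACCATTTgttaagtattt
miR-452-5p, 7mer-m8, bases 2316 to 2322: caaggctgaagAAACAGTgtctccaacag

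Such matches are frequent in long 3'UTRs. Of 3125 other protein-coding 3'UTRs within 25% of this length, 37.2% held at least 1 match for miR-224-3p, 34.2% for miR-452-5p, 29.4% for miR-224-5p and 36.2% for miR-452-3p. At least 3 matches were held by 1.41% of them for miR-224-3p, 1.38% for miR-452-5p, 0.672% for miR-224-5p and 1.31% for miR-452-3p. The cut-off of 3 is the number found for miR-224-3p itself, so these shares are a description and no test. Conversely, of the 371 tested miRNAs with a RefSeq sequence, 28% had at least 1 match in the CD274 3'UTR, and miR-224-3p was 1 of 2 with at least 3. A match of letters is a description and was not tested as a binding site, and its absence says nothing of the miRNA.

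The pattern of each arm over the 9 libraries was compared with that of all other tested miRNAs by Pearson's r of log2 CPM, as a description, since all miRNAs share libraries and groups. miR-224-3p was most like miR-708-5p (r = 0.989), miR-17-5p (0.976) and miR-93-5p (0.976), with few counts behind its own values. miR-224-5p was most like miR-146a-5p (0.944), miR-10a-3p (0.928) and miR-589-5p (0.912). miR-452-5p was nearest to miR-181d-5p (0.920), miR-651-5p (0.920) and miR-4449 (0.890), and miR-452-3p to miR-30e-3p (0.878), miR-3909 (0.860) and miR-455-3p (0.844). No arm had another arm of the cluster among its 3 nearest. Within the cluster r was 0.858 between the arms of miR-224, 0.792 between the 5p arms and 0.400 between the arms of miR-452.

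Other miRNAs of the X chromosome were not all called in the same direction, but they were skewed in each comparison. With the PD-L1 bait they leaned above the MS2 control and below the input, and their MS2 control levels leaned below the input. Whether this skew exceeds that of all miRNAs was not tested. Of 163 other names on the X chromosome, 42 were tested. Against the MS2 control 20 of the 42 were higher and 8 lower with the PD-L1 bait, where 31.4% and 28.7% of all miRNAs tested were. Against the input 11 of the 42 were higher and 20 lower, beside 34.1% and 32.4% of all. In the MS2 control 4 of the 42 were higher and 29 lower than in the input, beside 32.8% and 37% of all. The median log2 fold changes were 0.69, -1.17 and -1.62, beside 0.02, 0.04 and 0.02 for all miRNAs tested. Among them the most abundant in the input were miR-221-3p, miR-222-3p and miR-221-5p, which come from a pair of neighbouring hairpins as well. Their log2 fold changes over the MS2 control were -0.07 ± 0.13 (SE, edgeR adjusted p of 0.655), 1.22 ± 0.17 (edgeR adjusted p of 0.000119) and 0.34 ± 0.22 (edgeR adjusted p of 0.213), so that miR-222-3p alone of the 3 passed the test.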

How the data were processed

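The files deposited by the authors hold unnormalized read counts for each locus of a mature miRNA. Per the submitters' processing notes and the study's methods, reads were processed with cutadapt 1.18, Bowtie2 2.2.6 and featureCounts 1.6.3 on miRBase mature miRNAs, with hg38 as the build. Settings for strand and multi-mapped reads are not given in the sources used here.

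Counts were summed by miRNA name (2883 loci, 2652 names), filtered with filterByExpr by group (408 names) and scaled by TMM. A model with 3 group means over all 9 libraries was fitted with edgeR 4.0.16 in R 4.3.3 (quasi-likelihood test, two-sided, Benjamini-Hochberg over the 408, threshold 0.05). TMM scaling rests on most miRNAs being alike between groups, which is not given after trapping, and library totals were therefore run beside it. The SE is the log2 fold change divided by the square root of F. Intervals, permutations and arm ratios used scipy 1.17.1. In 5 simulations of the comparison with the MS2 control on 408 miRNAs, 90.2% of 200 miRNAs changed by 2 on the log2 scale were recovered.

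Libraries were grouped by sample titles. Replicates all differed beyond sampling noise, and in each group replicate 1 differed most from the others. The chi-square per degree of freedom of replicate 1 against replicates 2 and 3 was 121 and 156 in the input, beside 8.60 between replicates 2 and 3. In the MS2 control these values were 108 and 138 beside 30.5, and with the PD-L1 bait 93.8 and 154 beside 17.9. Named miRNAs are the 4 arms, their seed sharers, the 3 nearest patterns of each arm, the neighbours in rank of miR-224-3p, the 3 hairpins with the largest distance between arms and the 3 most abundant others of the X chromosome. Members and lists were chosen with earlier results of these data known. Mature and 3'UTR sequences came from RefSeq (GRCh38.p14) and GENCODE transcripts (GRCh37), and coordinates were not converted between builds. Alternatives were DESeq2 size factors, library totals, DESeq2 1.42.0, fits of the compared groups alone, loci kept apart, filters of none and of 10 CPM on the mean, the replicate block, leaving out each library, and for ratios and matches another pseudocount, summed counts and 6mers.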

Additional observations from a re-analysis of the deposited data

How the results depend on the processing

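The direction and call of miR-224-5p over the MS2 control held under every alternative run, as did the direction of miR-224-3p in each comparison and of both arm ratios. A mean of at least 10 CPM left out miR-224-3p, so that alternative gives no value for it. No pairing of libraries by replicate number was seen. Deviations from the group means correlated between -0.179 and 0.129 for libraries of the same number, which with 3 libraries in each group cannot exclude a pairing. With the number as a block, 126 miRNAs were higher and 117 lower than in the MS2 control, and no call of an arm changed.

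With library totals, the log2 fold changes over the input were 0.82 for miR-224-5p and 0.48 for miR-452-5p, and in the MS2 control against the input 0.0794 for miR-224-5p, -0.36 for miR-452-5p and 0.0220 for miR-452-3p. For miR-452-5p over the input, DESeq2 size factors gave 0.0157 and DESeq2 gave 0.0121. Without a filter miR-224-5p stood at -0.00607 over the input, and 201 miRNAs were lower than in the input against 132 as reported. With only the groups compared, miR-452-3p passed the threshold against the input at -0.85. In the MS2 control against the input, miR-224-5p lost its call at -0.48 with DESeq2 size factors and at -0.49 with a mean of at least 10 CPM. Except for library totals, which shift all miRNAs by the amounts given with the results, and the unfiltered and subset fits, whose miRNAs or libraries differ by construction, the cause was not tested. Counting 6mers as well gave 2 matches for miR-452-5p and 1 for miR-452-3p.

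Fits that each left out 1 library gave, over the MS2 control, from 5.64 to 8.52 for miR-224-3p, from 0.70 to 1.07 for miR-452-5p and from -0.52 to 0.0487 for miR-452-3p. Over the input they gave from 0.14 to 0.47 for miR-224-5p, from -0.28 to 0.0376 for miR-452-5p and from -1.12 to -0.53 for miR-452-3p. In the MS2 control against the input they gave from -5.70 to -2.73 for miR-224-3p, the extremes being those without MS2 control replicates 3 and 2, and from -0.67 to -0.33 for miR-224-5p. miR-224-3p had 1 count in all MS2 control libraries together, so its ratios to that group carry wide counting intervals.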
